A study of Mus musculus with 4 samples.

Results

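Hox genes encode homeodomain transcription factors, and all 39 Hox genes of the mouse clusters were present on the arrays. They were taken by symbol alone, as the genes named Hox with a cluster letter from a to d and a paralog number, and no measured value entered the choice. They had 51 of 25697 probes and made up 39 of 17876 genes. A single probe stood for 30 of them, 2 probes for 6 and 3 probes for 3.

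RNA came from mouse E14 embryonic stem (ES) cells, a feeder-independent line kept undifferentiated by the cytokine LIF. There were 4 groups of 1 Illumina bead array each, so no group had a replicate and the spread between cultures is unknown. In all groups the cells carried a virus stably expressing an shRNA, which was either a scramble control or one against AKAP95, the nuclear protein of the gene Akap8. Scramble and knockdown cells were measured undifferentiated, with LIF on gelatin, and after RA, meaning 4 days without LIF and then 4 days in 1 µM all-trans retinoic acid as a monolayer. RA treatment, loss of LIF and days in culture therefore cannot be told apart in what is called the RA difference here. Whether each population was a pool or a clone was not given in the sources used here.

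The Hox genes lie in 4 clusters, HoxA on chromosome 6, HoxB on chromosome 11, HoxC on chromosome 15 and HoxD on chromosome 2. Within a cluster the genes run from paralog group 1 at the 3′ end to group 13 at the 5′ end, and genes of the same number in different clusters are paralogs. By the lowest annotated coordinate of each gene, 1 pair of neighbours in HoxB and 1 in HoxD was out of this order. For HoxA, on the reverse strand, that coordinate is the 3′ end of the gene and not its start. The upstream window listed for Hoxa3 lies 5′ of those of Hoxa5 and Hoxa6, so by gene start HoxA is not in strict order either. In HoxD, the annotated start of Hoxd3 lies 5′ of that of Hoxd4. In the embryo, genes near the 3′ end come on first and reach furthest into the hindbrain, while those near the 5′ end come on later and pattern the trunk, tail and limbs. Retinoic acid acts through nuclear receptors on elements within and around the clusters, and ES cells hold the clusters silent with Polycomb marks that MLL/SET1 histone methyltransferases oppose. The study is about AKAP95 as a partner of MLL complexes and of the MLL2 complex, so the clusters bear on both the RA response and the knockdown.

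The 250 bases upstream of the start are shown for 4 genes that stand for the patterns reported here. Hoxa5 was high on both RA arrays, Hoxb1 was higher in knockdown than in scramble cells after RA, and the neighbours Hoxd3 and Hoxd4 were lower in knockdown cells. The sequences are from RefSeq on GRCm38.p6, 5′ to 3′ on the strand of the gene, at chr6:52204588-52204837 (reverse strand), chr11:96365508-96365757, chr2:74711743-74711992 and chr2:74721728-74721977 (forward strand). Capitals mark AGGTCA, the half-site that retinoic acid receptors bind, or TGATNGAT, a site of Pbx and Hox protein pairs, each on either strand.
Hoxa5: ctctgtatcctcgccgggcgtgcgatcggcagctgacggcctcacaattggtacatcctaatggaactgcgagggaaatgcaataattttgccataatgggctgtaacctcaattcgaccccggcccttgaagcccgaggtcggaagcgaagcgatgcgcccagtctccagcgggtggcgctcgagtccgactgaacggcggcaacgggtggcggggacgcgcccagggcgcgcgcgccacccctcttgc
Hoxb1: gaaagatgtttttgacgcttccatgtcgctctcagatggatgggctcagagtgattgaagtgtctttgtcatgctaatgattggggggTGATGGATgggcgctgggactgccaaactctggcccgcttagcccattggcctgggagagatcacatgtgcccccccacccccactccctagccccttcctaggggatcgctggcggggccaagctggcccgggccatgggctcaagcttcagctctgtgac
Hoxd3: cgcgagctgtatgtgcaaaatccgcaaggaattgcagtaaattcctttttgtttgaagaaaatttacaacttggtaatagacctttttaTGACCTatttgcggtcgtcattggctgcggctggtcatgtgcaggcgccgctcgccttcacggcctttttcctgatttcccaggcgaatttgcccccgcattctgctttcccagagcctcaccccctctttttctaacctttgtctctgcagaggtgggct
Hoxd4: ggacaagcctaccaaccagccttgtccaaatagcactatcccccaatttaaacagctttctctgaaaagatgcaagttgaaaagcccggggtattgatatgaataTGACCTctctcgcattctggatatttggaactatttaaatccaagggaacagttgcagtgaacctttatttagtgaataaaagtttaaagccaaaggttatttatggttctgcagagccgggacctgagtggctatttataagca
The half-site AGGTCA began 161 bases before the start of Hoxd3 and 145 bases before that of Hoxd4, both times as TGACCT. The Pbx and Hox match began 162 bases before the start of Hoxb1. The Hoxa5 window held neither. Of the 24 upstream windows listed for 22 Hox genes, 6 (25%) held AGGTCA, against 14% of 32851 windows of the same length for all genes. The 6 belonged to Hoxb4, Hoxc4, Hoxd3, Hoxd4, Hoxd8 and Hoxd10. TGATNGAT was in the windows of Hoxa2, Hoxb1 and Hoxd11, which is 12.5% against 1.82% of all windows. A direct repeat of AGGTCA with 5 or with 2 bases between was in 0 of the 24, and in 3 of all windows for each spacing. These are matches of letters and not measured sites.

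The arrays were alike in depth. Between 11344 and 12156 probes (44.1% to 47.3%) were detected per array at a detection p under 0.01, the scanner software's comparison with negative controls, and the median signal was between 75.1 and 82.8. Signals are the average bead intensity in linear units without normalization. Akap8 had a signal of 272 in scramble and 139 in knockdown cells before RA, and of 297 and 199.7 after it. Its log2 difference, knockdown less scramble, was -1.18 before and -0.77 after RA. The ES cell label was borne out by all 12 ES cell markers listed, such as Pou5f1 and Nanog, which were detected on both undifferentiated arrays.

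Hox RNA was near background in undifferentiated cells and was found mainly after RA. Of the 39 genes, 2 were detected in scramble and 5 in knockdown cells before RA, against 21 and 22 after it. In all, 24 genes were detected on at least 1 array. Hoxa13 was among the 2 seen on all 4 arrays, and Hoxc10, Hoxc13 and Hoxd8 were seen in undifferentiated knockdown but not scramble cells. By cluster, 6 of 11 HoxA, 8 of 10 HoxB, 6 of 9 HoxC and 4 of 9 HoxD genes were detected somewhere. By position, detection covered 21 of 27 genes of paralog groups 1 to 9 but 3 of 12 genes of groups 10 to 13. The 15 genes detected on no array were Hoxa3, Hoxa6, Hoxa9, Hoxa10, Hoxa11, Hoxb8, Hoxb13, Hoxc8, Hoxc11, Hoxc12, Hoxd1, Hoxd10, Hoxd11, Hoxd12 and Hoxd13, and they have no fold here. Not being above background on these probes is not a statement that the RNA was absent.

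**Figure D1:**
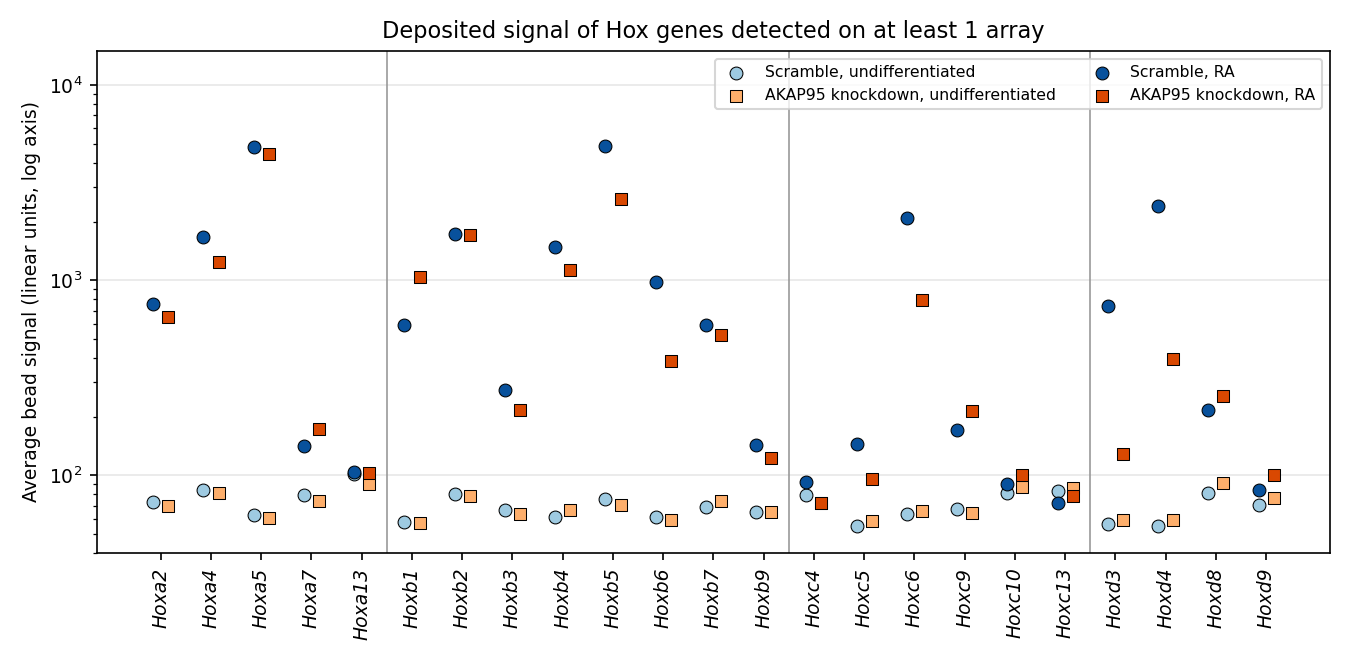
Deposited average bead signal (linear units, log axis) of 23 Hox genes detected on at least 1 array, in cluster order, with 1 point per array and no replicates. The undifferentiated arrays sit between 54.9 and 102 for every gene shown, while after RA Hoxa5 reached 4834 in scramble cells and Hoxb5 4853.

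After RA, Hox genes of the 3′ and middle part of the clusters were far above their undifferentiated signals in both populations. A gene was compared where it was detected on at least 1 array of a pair, and a log2 difference of at least 1 (2-fold) was counted. Where the dim side was not detected, it was raised to the lowest value detected on that array, and the difference is a bound, written "at least". Differences and bounds are on the background-corrected, normalized log2 scale and hold on that scale alone. The printed signals still contain background, so their plain ratios are often smaller, and for the main genes the bound without background correction is given as well. In scramble cells 16 of 21 Hox genes compared were higher after RA and 0 lower, where 14.2% of the 9509 genes compared were higher and 11.8% lower (26% in all). In knockdown cells 16 of 23 were higher and 0 lower, beside 12.4% and 9.81% of 9530 genes (22.2% in all). In scramble cells 18 of the 21 had no undifferentiated value above background and entered through the RA array alone, so a lower call was not open to them, and the counts are a description. The median log2 RA difference of the Hox genes was 3.61 in scramble and 2.73 in knockdown cells, and that of all genes was -0.02 and 0.00. Hoxc4 in scramble cells and Hoxc5 in knockdown cells were detected after RA but not above that floor, so they were compared and have no value in the medians.

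The 1 test these arrays allow is a limma fit over all 4 of them, with a term for RA and a term for the shRNA. It rests on 1 residual degree of freedom that also takes up any unequal RA response of the populations. Of 24 Hox genes tested, 18 rose with RA and 1 fell at a Benjamini-Hochberg adjusted p under 0.05 over 9875 genes, of which 18.9% rose and 16.3% fell. A gene was tested where it was detected on at least 1 array, and 5 of the 24 were detected on an undifferentiated array. The others entered through the RA arrays alone, so a fall was hardly open to them, and these counts too are a description. The 18 were 5 of 6 tested HoxA, 8 of 8 HoxB, 3 of 6 HoxC and 2 of 4 HoxD genes. All 18 belong to paralog groups 1 to 9. With RA as the sole term, leaving out either undifferentiated array ended every call, of Hox and of all other genes. Those fits lacked the shRNA term and took their spread from the RA arrays alone. The part of each in the loss of calls was not tested.

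**Figure D2:**
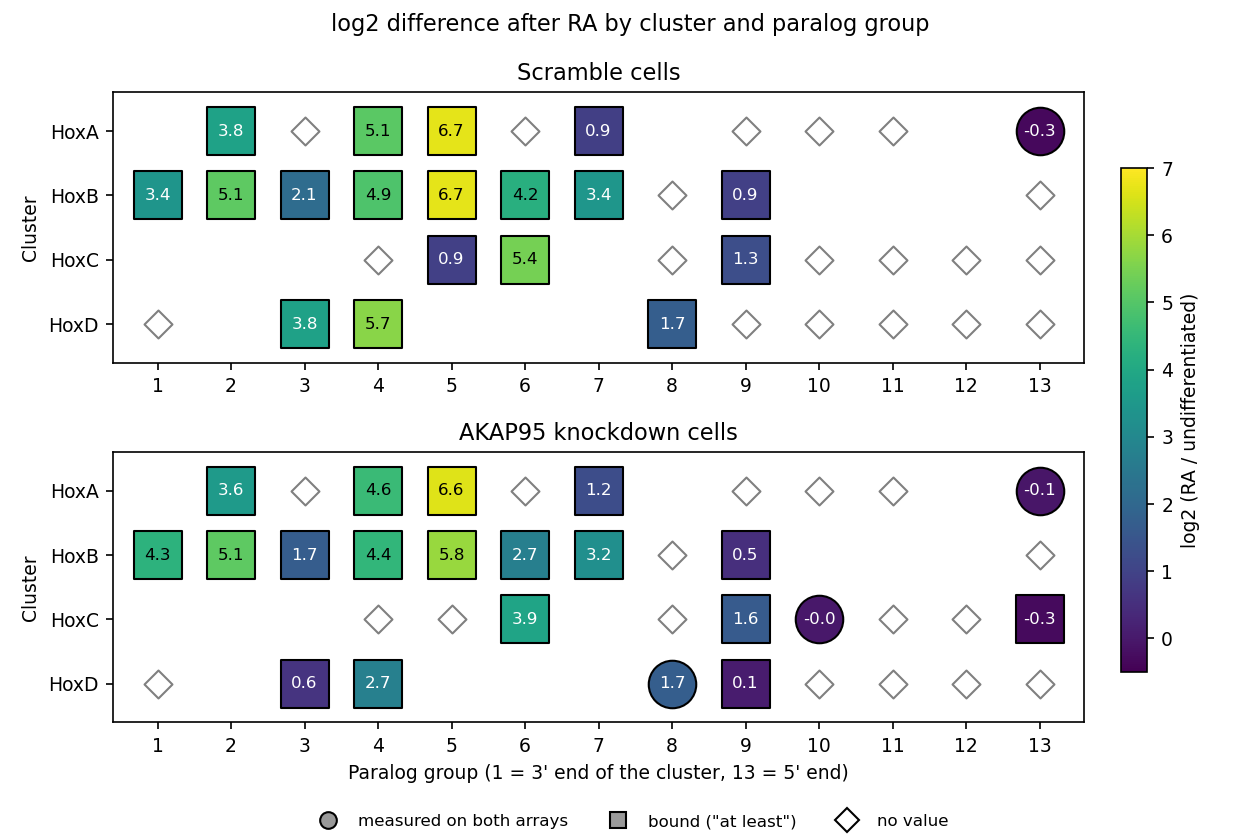
Log2 RA difference of the Hox genes reported by name, by cluster (rows) and paralog group (columns) in scramble cells (upper panel) and knockdown cells (lower panel), 1 array against 1 array. Circles were measured on both arrays, squares are bounds and diamonds have no value. Groups 1 to 6 hold the differences above 3.5 in both panels, and Hoxd3 goes from 3.79 in scramble to 0.63 in knockdown cells.

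Paralog groups 1 and 2, at the 3′ end, act in the hindbrain and its neural crest. Hoxb1, which gives its segment of the hindbrain its identity, had 57.5 and 56.9 undifferentiated, and 587 in scramble and 1045 in knockdown cells after RA. Hoxb1 is thus the member of these groups with the higher RA signal in knockdown cells, and its RA difference was at least 3.43 in scramble and at least 4.31 in knockdown cells (2.56 and 3.39 without background correction). Hoxa2, which patterns the second pharyngeal arch, had 73.2 and 69.8 before and 759 and 647 after RA. Hoxb2, its HoxB paralog in the hindbrain, had 80.5 and 78.8 before and 1734 and 1703 after RA, and its RA difference was at least 5.13 in each population (4.18 and 4.17 without background correction). All 3 of these genes were high on both RA arrays.

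In paralog group 3, whose members act in the hindbrain and the pharyngeal arches, the clusters parted. Hoxb3 had 66.3 and 63.4 undifferentiated, 273 in scramble and 218 in knockdown cells after RA. Hoxd3 had 56.7 and 59.4 undifferentiated, 743 in scramble but 129 in knockdown cells after RA. The RA difference of Hoxd3 was at least 3.79 in scramble and at least 0.63 in knockdown cells (2.90 and 0.35 without background correction). In the limma model its RA effect was 3.29 with a standard error of 0.84 and missed the threshold (adjusted p = 0.0517). It passed on the deposited median-normalized values (0.0254), with median scaling (0.0478) and with a detection p under 0.05 (0.0447). With RA as the sole term, its effect was 1.71 without the scramble RA array and 4.87 without the knockdown RA array. Both of those fits pass the threshold, but they set 1 RA array against a spread taken from undifferentiated arrays on which Hoxd3 was not detected, and they give the gene no support. Hoxa3 was detected on no array.

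Paralog groups 4 and 5 act at the border of the hindbrain and the spinal cord and along the neck and upper trunk. Hoxa4 had 84.1 and 81.0 before RA, 1676 in scramble and 1236 in knockdown cells after it. Hoxb4, which also promotes the self-renewal of blood stem cells when overexpressed, had 61.2 and 66.8, then 1484 and 1128. Hoxd4, a hindbrain gene with a known retinoic acid response element, had 55.3 and 59.3, then 2409 in scramble and 395 in knockdown cells. Hoxa4 and Hoxb4 were thus high on both RA arrays, and Hoxd4 was high in scramble cells and intermediate in knockdown cells. Its RA difference was at least 5.66 in scramble and at least 2.75 in knockdown cells (4.69 and 1.95 without background correction). In the limma model it rose by 5.30 (standard error 0.78, adjusted p = 0.0190). Hoxc4 was detected in scramble cells after RA alone, at 92.4, against 72.0 to 79.1 on the other arrays, and was not called.

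Hoxa5, needed for lung and neck development, rose by 7.64 in the limma model (standard error 0.16, adjusted p = 0.00886), a size that rests on undifferentiated values at background. Its signals were 62.9 and 60.9 undifferentiated, 4834 in scramble and 4419 in knockdown cells after RA. The RA difference was at least 6.68 in scramble and at least 6.63 in knockdown cells, and at least 5.70 and 5.65 without background correction. Hoxb5, a gene of the enteric nervous system and neck, had 75.9 and 70.8, then 4853 and 2622. Its RA difference was likewise at least 6.68 in scramble cells and was at least 5.84 in knockdown cells (5.70 and 4.88 without background correction). Hoxc5 had 54.9 and 58.7, then 145 and 95.8. It rose by 1.55 in the limma model (adjusted p = 0.0326), although its knockdown RA array gave no bound above the undifferentiated one.

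Paralog group 6, active in the thoracic region, was represented by Hoxb6 and Hoxc6. Hoxb6 had 61.5 and 59.5 undifferentiated, 982 in scramble and 387 in knockdown cells after RA. Hoxc6, which also marks motor neurons of the forelimb level, had 63.2 and 65.5, then 2084 and 794. Both were high on the scramble RA array and lower, yet well above the undifferentiated signals, on the knockdown RA array. The RA differences were at least 4.23 and 2.72 for Hoxb6, in scramble and knockdown cells, and at least 5.44 and 3.88 for Hoxc6. Without background correction they were 3.31 and 1.93, and 4.48 and 2.98.

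Paralog groups 7 to 9, which pattern the thoracic and lumbar trunk, had smaller RA differences than groups 4 to 6 except at Hoxb7 (those of Hoxc4 and Hoxc5 apart). Hoxb7 had 69.0 and 74.3, then 588 and 525, with RA differences of at least 3.43 and 3.21 (2.56 and 2.36 without background correction). Hoxa7 had 79.8 and 74.1, then 141 in scramble and 174 in knockdown cells. Its RA difference was at least 0.88 in scramble and at least 1.25 in knockdown cells (0.51 and 0.76 without background correction, inside 2-fold). Hoxd8 had 81.7 and 91.3, then 217 and 255, and Hoxc9, which sets the thoracic identity of motor neurons, had 67.6 and 64.0, then 171 and 213. Hoxb9 had 65.2 and 65.0, then 143 and 122, while Hoxd9 was detected in knockdown cells after RA alone, at 101 against 70.2 to 84.0 elsewhere. Apart from Hoxd9, all of these rose with RA in the limma model, by 1.43 for Hoxa7 to 3.92 for Hoxb7.

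Of the posterior groups 10 to 13, which pattern the lumbosacral region, tail and limb ends, none rose. Hoxa13, a gene of digits and the urogenital tract, had 102 and 90.1 undifferentiated and 104 and 103 after RA. Its other 2 probes, at 59.3 to 80.0, were detected on no array, so its detection rests on 1 of 3 probes. Hoxc10, a lumbar gene, had 81.1 and 86.8, then 90.6 and 101, and passed the detection threshold in knockdown cells alone. In scramble cells its detection p was just over the threshold, at 0.0175 before and 0.0125 after RA. Its second probe, at 57.5 to 64.3, was detected on no array. Hoxc13, a gene of hair and nails, had 83.6 and 86.2, then 71.9 and 78.9. It was detected on the undifferentiated knockdown array alone, and it is the member that fell in the limma model (-0.66, standard error 0.16, adjusted p = 0.0497). Without background correction its adjusted p in that model was 0.122. On the probe read for each, all 3 genes stayed within 71.9 to 104 on every array.

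Where a gene had several probes, the detected probes gave the same direction with different sizes. The second Hoxa2 probe had 59.5 and 57.3, then 460 and 418. The second Hoxb1 probe had 56.7 and 59.3, then 263 and 468, so that both Hoxb1 probes were brighter in knockdown cells after RA. Of the other Hoxb3 probes, one had 76.0 and 68.5, then 149 and 117, and the other was detected in scramble cells after RA alone, at 96.7.

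In undifferentiated cells the few Hox genes detected had similar signals in both populations. Of 5 genes compared, 0 were past 2-fold in either direction, and of all 8734 genes compared 0.0687% were higher and 0.126% lower (0.195% in all). Their log2 differences, knockdown less scramble, included -0.31 for Hoxa13, measured on both arrays. Hoxc10, Hoxc13 and Hoxd8 were not detected in scramble cells, and their signals there (81.1, 83.6 and 81.7) were close to those in knockdown cells (86.8, 86.2 and 91.3).

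After RA, 4 Hox genes were lower in knockdown than in scramble cells by at least 2-fold, out of 23 compared, and 0 were higher. Of all 9397 genes compared, 3.25% were lower and 3.17% higher (6.42% in all). The 4 were Hoxd3 (log2 difference -3.16, 8.94-fold lower), Hoxd4 (-2.91, 7.51-fold), Hoxc6 (-1.56, 2.96-fold) and Hoxb6 (-1.51, 2.85-fold), each read from 1 probe and measured on both arrays. Without background correction they were -2.55, -2.74, -1.50 and -1.38, in the same order. Hoxd3 held rank 6 and Hoxd4 rank 9 from the lowest among 9273 genes with a value. Hoxc5 (-0.97) and Hoxb5 (-0.84) came next and lay inside the 2-fold line. Since each value is 1 RNA sample against another of a mixed culture, fewer cells with Hox RNA and less Hox RNA per cell cannot be told apart.

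**Figure D3:**
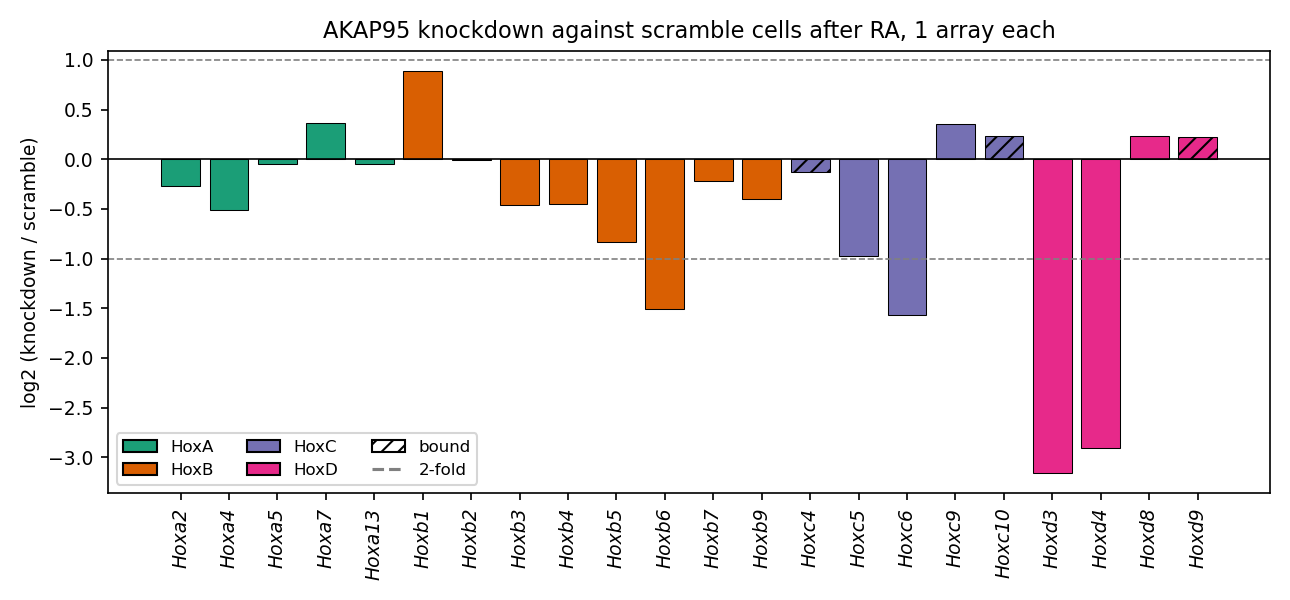
Log2 difference between knockdown and scramble cells after RA for 22 Hox genes compared, 1 array against 1 array, in cluster order, with hatched bars for bounds and dashed lines at 2-fold. Hoxd3 and Hoxd4 stand lowest at -3.16 and -2.91, and Hoxb1 is the highest at 0.89.

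The knockdown difference varied along the clusters. Of the 23 genes, 17 were below 0 and 6 above, and the median was -0.22 beside 0.01 for all genes. The cluster medians were -0.11 for HoxA, -0.42 for HoxB, -0.13 for HoxC and -1.34 for HoxD, and the last of these joins Hoxd3 and Hoxd4 with Hoxd8 (0.24) and Hoxd9 (at least 0.22), which were above 0. A split by paralog number, chosen after the values were seen and therefore given as a description, put all 11 compared genes of groups 3 to 6 below 0, with a median of -0.84, and 4 of 6 genes of groups 7 to 9 above 0, with a median of 0.23. Neighbours thus differed within a cluster. Next to Hoxb6 (-1.51), Hoxb7 was at -0.22, and after Hoxa4 (-0.51), Hoxa5 was at -0.05.

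Several members had similar signals on the RA arrays of both populations. Hoxb2 differed by -0.00, Hoxa5 by -0.05 and Hoxa13 by -0.05. Hoxb1 lay on the other side, at 0.89 on its brighter probe and 0.96 on the second, just inside the 2-fold line. The standard deviation between probes of 1 gene on these same RA arrays was 0.19 over 4916 probes of 2107 genes. That spread holds probe noise but no difference between cultures, so it cannot stand in for replicates.

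The RA differences of the populations were also subtracted, knockdown minus scramble, without bounds so that all 24 genes have a value. This shares its RA arrays with the values above. Hoxd3 was at -3.21, Hoxd4 at -2.99, Hoxc6 at -1.65, Hoxb6 at -1.46 and Hoxc5 at -1.05. These 5 of 24 (20.8%) were at or under -1, against 3.87% of 9875 genes. Among the Hox genes 16 (66.7%) were negative, against 48.1% of all genes, and the largest positive value was 0.91, for Hoxb1. Values of genes undetected before RA rest on signals at background, and 4 single arrays allow no test of this difference.

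**Figure D4:**
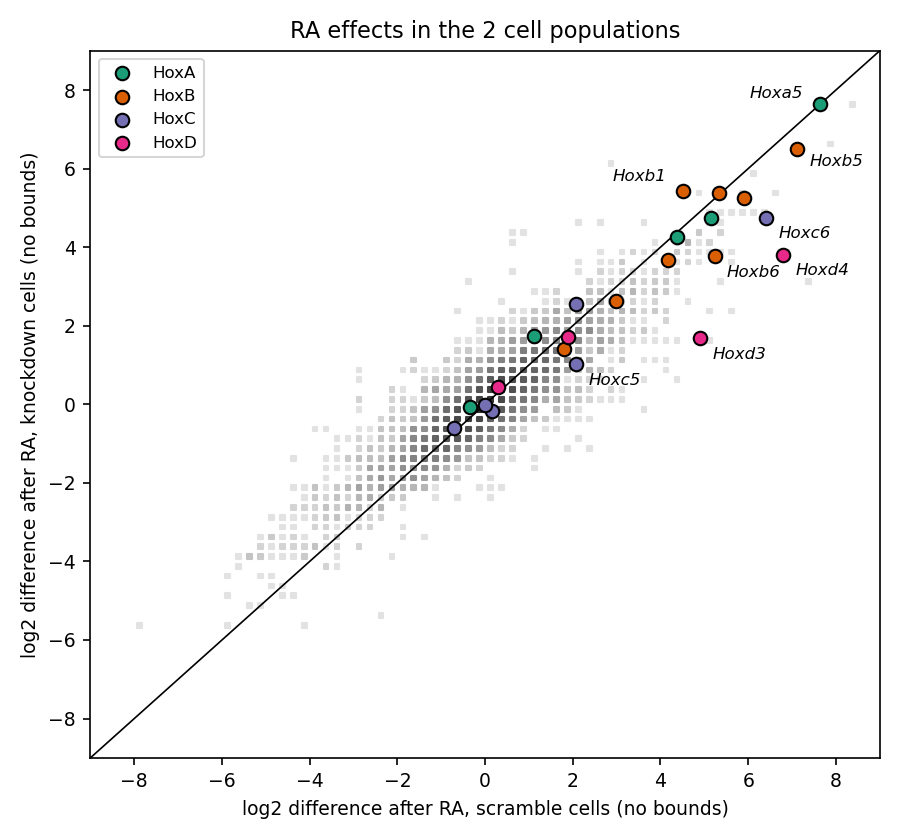
Log2 RA difference in knockdown cells (vertical) against that in scramble cells (horizontal), without bounds. Grey squares are 9875 genes in bins of 0.25, darker with more genes, coloured points are 23 Hox genes, and the line marks equal differences. Among the Hox genes, Hoxd3 (4.90 and 1.69) and Hoxd4 (6.80 and 3.81) lie furthest below the line, and Hoxa5 (7.64 and 7.65) lies on it.

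In the limma model no Hox gene was called for the knockdown term. Of 9875 genes 0 passed (0% in each direction), and the smallest adjusted p was 0.818. At an unadjusted p under 0.05 there were 0 of 24 Hox genes and 412 genes in all (4.17%). That term averages the states before and after RA, and a gene that differs in one state alone puts the difference into its own error. A p that misses the threshold does not show that Hox levels were equal.

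Markers of other states moved between the RA arrays together with the Hox genes. For the counts between the RA arrays in this paragraph, the shares of all 9397 genes compared were 3.25% lower and 3.17% higher. Of 12 neural markers on the arrays, 5 of 8 compared were lower in knockdown cells after RA by at least 2-fold and 0 higher. They were Nefm (-3.31), Dbx1 (-3.11), Zic1 (-3.05), Dcx (-2.43) and Map2 (-1.03). In scramble cells 7 of 8 neural markers compared were higher after RA and 1 lower (14.2% and 11.8% of all genes). In knockdown cells 3 of 9 were higher and 1 lower (12.4% and 9.81%). Mapt was the lower marker in both, at 765 and 786 before RA and 128 and 134 after it. The summed signal of the 12, Mapt included, was 1650 in scramble and 1668 in knockdown cells before RA, and 4847 and 1890 after it. Pax6, Sox1 and Nefl were detected on no array. ES cell markers went the other way after RA, with 6 of 9 compared higher in knockdown cells, 0 lower, and a summed signal of 1927 in scramble and 4191 in knockdown cells, against 52300 and 50415 undifferentiated. Endoderm markers summed to 2822, 2580, 8193 and 5198 in the same order of arrays (2 of 8 compared lower in knockdown cells after RA, 0 higher), with Afp and Ttr undetected. Mesoderm markers summed to 1092, 1101, 1311 and 1054 (1 of 4 higher and 1 lower), with T, Mixl1, Kdr, Mesp1 and Hand1 undetected. Trophoblast markers summed to 2180, 2162, 1393 and 3155 (3 of 5 higher, 0 lower), with Hand1 undetected. A single marker of the 7 made up most of the undifferentiated sums, with 1724, 1666, 536 and 1291 in the same order. The part of these cell states in the lower Hox signals was not tested.

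Hox proteins bind DNA with cofactors of the TALE homeobox class, the Pbx, Meis and Pknox proteins. Of the 9 cofactor genes listed, 7 were higher after RA in scramble cells and 6 in knockdown cells, 0 were lower in either, and 6 rose in the limma model, where 14.2%, 12.4% and 18.9% of all genes did. Meis1 had 171 and 257 undifferentiated, then 5377 and 4287, and Meis2 had 268 and 300.5, then 6884 and 4228. Both were thus high on the 2 RA arrays, with measured RA differences in scramble cells of 5.17 and 4.76. After RA, 2 of the 9 were lower in knockdown cells and 0 higher, beside 3.25% and 3.17% of all genes. Pknox2 was among the lower ones (350.2 in scramble and 158 in knockdown cells, -1.50).

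Of 12 tested genes for retinoid receptors and retinoid response, 6 rose and 2 fell in the limma model, beside 18.9% and 16.3% of all genes. The receptor gene Rarb, itself a direct retinoic acid target, had 55.3 and 72.5, then 2232 and 1480. After RA, 4 of 12 compared were lower in knockdown cells and 1 higher, beside 3.25% and 3.17% of all genes. The retinoic acid binding protein genes Crabp1 (1008 in scramble and 232 in knockdown cells after RA, -2.48) and Crabp2 (1127 and 383, -1.74) were among the lower ones, and so was Stra6, for a retinol uptake receptor (-1.04). Stra8, a germ cell gene induced by retinoic acid, was the higher one (493 and 2188, 2.39).

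Of 10 tested genes upstream of the clusters or of hindbrain patterning, 4 rose and 2 fell in the limma model, beside 18.9% and 16.3% of all genes, so that the number that fell is near the share of all genes. Nr2f1 and Nr2f2, orphan nuclear receptor genes, rose by 7.27 and 4.93, and Cyp26a1, for an enzyme that degrades retinoic acid, rose by 2.98. Wnt3a, a signal of the tail end, was the 1 of 10 past 2-fold between the RA arrays, beside 6.42% of all genes (167 in scramble and 78.3, not detected, in knockdown cells). Cdx4 and Egr2, regulators that act directly on Hox genes in the tailbud or hindbrain, were detected on no array. The other Cdx genes listed were each detected on at least 1 array, at signals of about 110 or less.

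Of the genes for MLL/SET1 and Polycomb proteins, few were past 2-fold between the RA arrays, as was true of all genes (6.42%). Of 17 MLL/SET1 complex genes listed, 13 had a probe under the symbols used here. Most of the MLL methyltransferase genes had none, so these values do not cover them. Of 12 MLL/SET1 complex genes compared, 0 were past 2-fold, with a range from -0.11 to 0.48. With RA, 1 rose and 3 fell in the limma model, beside 18.9% and 16.3% of all genes. Rbbp5 (-1.22), Dpy30 (-1.06) and Wdr5 (-0.87), core subunits of these complexes, were the 3 that fell. Of 17 tested Polycomb and H3K27 demethylase genes, 5 rose and 5 fell with RA, beside the same shares of all genes. The largest effects were those of Phc1 (-2.08) and Cbx8 (1.73). Between the RA arrays, Cbx7 was the 1 of 16 compared past 2-fold (472 in scramble and 999 in knockdown cells, 1.16), and it was not called for RA.

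Of 14 tested genes that flank the clusters, 1 rose and 2 fell with RA, beside 18.9% and 16.3% of all genes. Smug1, a uracil glycosylase gene near HoxC, rose by 1.67, while Calcoco2, an autophagy receptor gene near HoxB, fell by 3.57 and Snx10, a sorting nexin gene near HoxA, by 1.06. Smug1 was lower (-1.01) and Calcoco2 higher (1.69) in knockdown cells after RA. Evx1 and Evx2, the homeobox genes at the 5′ ends of HoxA and HoxD, and Lnpk beyond Evx2 were detected on no array. Mtx2, on the other side of HoxD from Evx2, had 65.5 and 82.9, then 128 and 111, a difference of -0.38 between the RA arrays beside -3.16 for Hoxd3 and -2.91 for Hoxd4. Homeobox genes of related families gave 1 that rose (Meox1) and 2 that fell (Gbx2 and En2) of 5 tested, and Meox1 was lower in knockdown cells after RA (321 and 117, -1.97).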

How the data were processed

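Per the file headers, the authors deposited for each probe and array an average bead signal, a linear intensity without normalization, with a detection p-value. A deposited ratio, each intensity over the median of its array, was used as an alternative, and it matched the intensities to a relative tolerance of 1e-05 for all 25697 probes. The scanner software and its version are not given in the sources used here, and all 4 arrays carry 1 chip identifier.

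Intensities were background-corrected with limma 3.58.1 (R 4.3.3), with negative controls inferred from the detection p-values, offset by 16, quantile-normalized and put on the log2 scale. The probe brightest on average over the 4 arrays stood for its gene, and symbols were matched by accession to RefSeq (92.9% of probes). 0 Hox probes changed symbol. The model used lmFit and eBayes and was tested on simulated data. Those data had additive RA effects, no unequal RA response and no detection floor, so that test does not bear on the Hox calls. Python 3.11.15, numpy 2.4.6, pandas 2.3.3 and matplotlib 3.10.9 did the rest. Precision is limited by the number of arrays.

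The members, gene lists and tests were chosen with earlier results of these data known. Detected Hox genes are named with their values, and of the other lists at most 5 genes each, by the size of the RA effect or a 2-fold difference between the RA arrays. Markers lower in knockdown cells, Mapt, and list members named as undetected or as subunits were added after their values were seen. Some genes of the clusters and lists are counted but not reported by name here. Alternatives changed the background correction, offset, normalization, probe choice, detection threshold, bounds, covariates and arrays.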

Additional observations from a re-analysis of the deposited data

How the results depend on the processing

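Replicates could not be paired, because no group has a replicate array and the labels give no replicate numbers. The limma fit with both terms compares RA within each population. The median RA difference of the Hox genes in scramble cells (3.61) was 2.77 without background correction, 2.87 on the deposited ratios, 2.92 with offset 50, 4.37 without bounds and 2.61 at a detection p under 0.05. In knockdown cells (2.73) it was 1.94, 2.06 and 2.08 under the first 3 of these and 2.25 with the mean of all probes. In undifferentiated cells the median knockdown difference (0.09) was 0.27 without bounds. Genes detected on all 4 arrays left 2 Hox genes, of which 1 was past 2-fold after RA in each population (medians 1.48 and 1.38), 0 between the RA arrays, and 1 was called by limma. Leaving out 1 array with RA as the sole term gave 0 to 20 Hox genes called, and 0 without either undifferentiated array. The deposited ratios moved the median RA difference of all genes in knockdown cells by 0.11, and the split there from 12.4% higher and 9.81% lower to 12% and 4.93%.

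Of the genes past 2-fold, 15 of 16 stayed so in scramble cells under each setting that compared them (not Hoxc9), 14 of 16 in knockdown cells (not Hoxa7 and Hoxb3) and 4 of 4 between the RA arrays, with Hoxd3 from -3.16 to -2.51 and Hoxd4 from -2.91 to -2.59. Hoxc5 there went from -0.98 to -0.56. For single genes, 45 of 290 limma values lost the threshold and 5 gained it. Hoxd4 (adjusted p = 0.0502) and Hoxc5 (0.0720) lost it without a filter on detection, and 0 values past a threshold reversed. Among values inside 2-fold, signs changed for Hoxa13 after RA in knockdown cells (-0.08 to 0.11) and between the RA arrays (-0.05 to 0.06), and for Hoxc10 after RA in knockdown cells (-0.01 to 0.15). The cause was not tested. Signals near background limit genes below about the lowest detected level, and all values lack replicates.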
